A study of Mus musculus with 4 samples.

Results

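The genes described are the hedgehog ligands Shh, Ihh and Dhh, the receptor Ptch1, the membrane protein Smo that passes the signal into the cell, the transcription factors Gli1, Gli2 and Gli3, and the ligand-binding inhibitor Hhip. They were taken by gene symbol and are 9 of the 31053 genes listed for each library. Single cells from whole oviduct and whole uterus of CD1 mice (strain ICR) were profiled at postnatal day 3. Both organs came from wild-type mice that had received no treatment, and each had 2 libraries. One library of each organ pooled the organs of 3 neonates and the other those of 4, with both organs taken from the same animals, so a value of 1 library is a value of a pool and p-values measure the spread between pools. The study compares the young oviduct with the young uterus, and the values below ask which cells carried transcripts of each step of hedgehog signalling in either organ.

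Hedgehog ligands are secreted proteins that bind Ptch1 on a receiving cell. Without ligand Ptch1 holds Smo inactive and the Gli factors are cut or retained as repressors. Once ligand is bound, Smo acts through the primary cilium to let Gli2 and Gli3 work as activators, and Ptch1, Gli1 and Hhip are themselves classic targets that rise in responding cells. In many hollow organs, the reproductive tract included, the epithelium is known to send a ligand to the mesenchyme around it, where Smo and the Gli factors are read out. Dhh is best known from testis Sertoli cells, Schwann cells and endothelium, Ihh from cartilage, gut and the adult uterine epithelium, and Shh from embryonic signalling centres.

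Called barcodes numbered from 5716 to 7808 per library, with total UMIs (unique transcript molecules) from 61117726 to 114419939. After filters 20326 cells remained, with a median of 12503 UMIs, and any pair of libraries shared 8 to 15 barcodes. The filters on genes detected and mitochondrial share removed 11.4% and 13.8% of the oviduct barcodes and 29.0% and 28.7% of the uterine ones. The labels name mesenchymal and epithelial cells, and a gate on marker genes found those and others. Cells in oviduct 1, oviduct 2, uterus 1 and uterus 2 were, in that order, 150, 248, 52 and 62 for epithelium (marked by genes such as Epcam and Cdh1), 4249, 3314, 2295 and 2697 for mesenchyme (Pdgfra, Col1a1), and 1151, 1015, 759 and 761 for smooth muscle (Acta2, Myh11). They were 153, 123, 143 and 151 for pericytes (Rgs5), 468, 496, 77 and 63 for mesothelium (Upk3b, Lrrn4), 148, 133, 164 and 175 for blood endothelium (Pecam1, Cdh5), and 59, 46, 38 and 22 for myeloid cells. Uterine epithelium was the thinnest of the classes fitted, with median UMIs of 5536.5 and 2720.5 per cell against 17334 and 14588.5 in oviduct. Mesothelial cells also carried mesenchymal marker UMIs (median 65.9 per 10000, against 20.6 of their own markers), and 684 of the 3686 smooth muscle cells lay within 1.5 times of the gate. Epithelium, blood endothelium and myeloid cells were gated at no more than 10 mesenchymal marker UMIs per 10000. Pericytes, mesothelium and smooth muscle had no such limit. Levels below are UMIs per 1000000 UMIs of a class in a library (CPM). The libraries are given throughout in the order oviduct 1, oviduct 2, uterus 1, uterus 2.

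Dhh was the ligand with the most transcripts, and blood endothelium had its highest level in both organs. Over all kept cells the libraries held 97, 101, 23 and 42 Dhh UMIs, 263 in all. In blood endothelium the level was 8.99, 8.42, 5.10 and 5.68 CPM, from 43, 28, 20 and 30 UMIs. Both oviduct libraries were above both uterine ones there. In mesenchyme Dhh stood at 0.326, 0.970, 0.0326 and 0.140 CPM, from 17, 33, 1 and 5 UMIs. Endothelium was therefore above mesenchyme in each of the 4 libraries. The ratio of the summed levels was 15.1 in oviduct (95% counting interval 10.4 to 22.1) and 60.2 in uterus (25.8 to 172). Comparisons of blood endothelium and of mesothelium with mesenchyme, here and below, were added after the data were seen. Their p-values are not those of planned tests. In the edgeR fit on library sums the log2 differences were 3.80 ± 0.42 (SE) in oviduct (adjusted p = 9.68e-08) and 5.64 ± 0.61 in uterus (adjusted p = 7.52e-08). For the oviduct the difference was 2.98 without oviduct 1 and 4.67 without oviduct 2. For the uterus it was 5.10 without uterus 1 and 6.90 without uterus 2. Dhh passed the filter on low counts through endothelium, where it is high. The calls of this fit therefore repeat the counts and are no separate support. Free RNA, read from nearly empty droplets, could account for at most 0.105% of the endothelial Dhh UMIs. Myeloid cells, which are not known to make Dhh, held none in 165 cells, which allows a share of up to 1.82% of cells with a UMI at their median depth of 5750 UMIs. Among endothelial cells 66 of 620 had a Dhh UMI (10.6%, median depth 15508.5 UMIs), 14 had at least 3 and the highest cell had 8. With each cell thinned to 5000 UMIs the share was 6.11%, 3.54%, 3.88% and 2.13% in endothelium and 0.163%, 0.528%, 0.0485% and 0.0433% in mesenchyme.

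Other classes had lower Dhh levels, but many of the transcripts lay in them. Of the 263 Dhh UMIs blood endothelium held 121, mesenchyme 56, mesothelium 42, smooth muscle 19, epithelium 18 and pericytes 4. In mesothelium 40 of 1104 cells had a Dhh UMI (3.62%). Epithelium had 7, 11, 0 and 0 Dhh UMIs, or 0.996 and 1.29 CPM in oviduct. The endothelial level was 7.58 times the epithelial one in oviduct (4.47 to 13.5), and in uterus it was at least 6.07-fold higher than the floor of 3 counts over both libraries. Oviduct epithelium was not separable from oviduct mesenchyme for Dhh, with a log2 difference of 0.87 ± 0.61 (adjusted p = 0.205). Mesothelium held 18, 21, 1 and 2 Dhh UMIs. In oviduct it was called above mesenchyme by 1.03 ± 0.41 on the log2 scale (adjusted p = 0.0384), and it was called under 5 of 11 alternatives. The call was lost without oviduct 1 (0.73, adjusted p = 0.488), without oviduct 2 (1.44, adjusted p = 0.225), by DESeq2 (adjusted p = 0.304), with no filter on low counts (adjusted p = 0.063), with doublets kept (adjusted p = 0.0678) and with no library term (adjusted p = 0.151). In uterus mesothelial Dhh lay above mesenchyme by 3.16 ± 1.31 on the log2 scale and was not called (edgeR adjusted p = 0.0679). That value rests on 1 and 2 mesothelial UMIs and was called under 1 of 11 alternatives. Smooth muscle and pericytes stayed at or under 0.899 CPM in every library.

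Ihh and Shh were close to absent in all classes. Ihh, the ligand associated with adult uterine epithelium, had 14, 13, 3 and 8 UMIs per library over all kept cells, 38 in all. Epithelium held 0 of them among 18933730 UMIs, which puts the floor of 3 counts at 0.158 CPM. Uterine epithelium alone, with 3351263 UMIs, allows a floor of 0.895 CPM, and oviduct epithelium 0.193 CPM. Over both organs 0 of 512 epithelial cells had an Ihh UMI, which allows up to 0.586% of cells with a detected UMI at these depths and does not limit the cells that express it. The median epithelial cell had 17334, 14588.5, 5536.5 and 2720.5 UMIs by library. Mesenchyme held 7, 6, 1 and 4 Ihh UMIs. Shh had 1, 3, 2 and 1 UMIs over all kept cells, and epithelium had 1 in each oviduct library and 0 in uterus. At this depth epithelial Ihh and Shh were thus not detectable above a handful of molecules. Neither passed the filter on low counts in any of the 15 comparisons fitted.

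**Figure D1:**
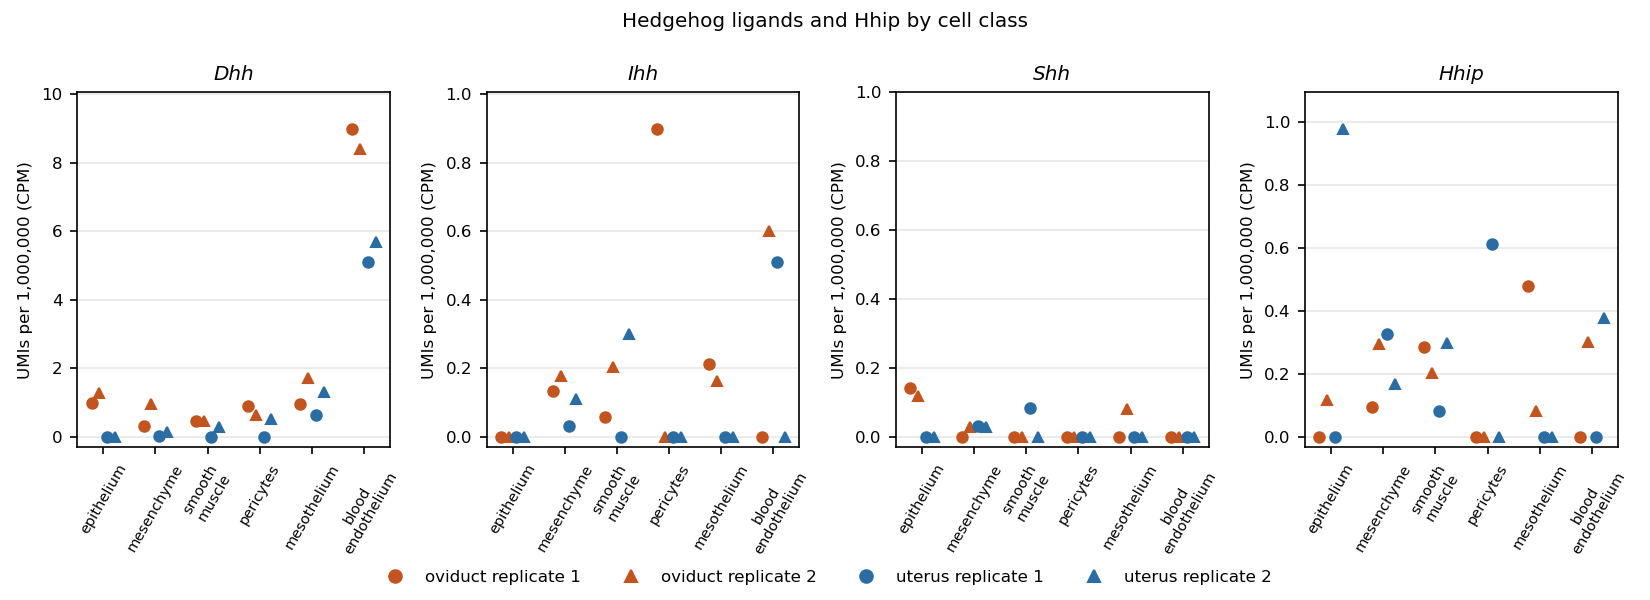
Levels of Dhh, Ihh, Shh and Hhip in 6 cell classes, in UMIs per 1000000 (CPM, linear axis that differs between panels), with 1 point per library. In the Dhh panel the blood endothelium lies between 5.10 and 8.99 CPM, above every other class.

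Endothelial cells with a Dhh transcript carried more RNA of the arterial gene Gja5 than those without in every library. Sox17, Efnb2 and Dll4 were also higher in each library, by margins as small as 59.0 against 58.4 CPM, whereas Gja4 and Hey1 were not higher in all of them. The genes were chosen after the values were seen, and the comparison is a description with no test. Gja5, a gap junction gene of arterial endothelium, had 159, 43.5, 136 and 69.1 CPM in cells with a Dhh UMI and 7.42, 17.7, 4.25 and 5.16 CPM in cells without. It was higher with Dhh in all 4 libraries. Gja4, a second arterial gap junction gene, had 503, 117, 295 and 259 CPM with Dhh and 122, 120, 86.7 and 65.6 CPM without. For Gja4, oviduct 2 was not higher with Dhh. Over all libraries Efnb2, the arterial ephrin, stood at 221 against 111 CPM, and in oviduct 2 it was 157 against 154. The Notch ligand Dll4 stood at 108 against 67.9 CPM, with close values in oviduct 2 (98.8 against 96.4) and uterus 1 (59.0 against 58.4). Sox17 stood at 325 against 239 CPM. Hey1, a Notch target, stood at 38.4 against 16.0 CPM and was lower with Dhh in oviduct 2 (18.8 against 26.4) and uterus 1 (10.3 against 15.9). Of the 4 venous genes 1 was lower with Dhh over all libraries, Aplnr at 225 against 285 CPM. The other 3 were higher over all libraries: Nr2f2 at 181 against 146 CPM, Nrp2 at 125 against 105 CPM and Ephb4 at 83.4 against 71.4 CPM. In oviduct 1 these 3 were lower with Dhh, Nr2f2 at 108 against 152 CPM, Nrp2 at 80.0 against 129 CPM and Ephb4 at 68.0 against 70.3 CPM, as was Ephb4 in uterus 1 (59.0 against 74.8). The cells with a Dhh UMI were deeper, with a median of 44752 UMIs against 14478.5. Among cells of at least 20000 UMIs, 49 with and 201 without Dhh, Gja5 was still 95.9 against 4.50 CPM and Gja4 291 against 74.4 CPM, at median depths of 62104 and 38726 UMIs. The other arterial genes were also higher there: Efnb2 (213 against 109 CPM), Dll4 (108 against 63.8), Hey1 (40.4 against 15.2) and Sox17 (292 against 238). So were the venous genes Nr2f2 (187 against 158 CPM), Nrp2 (130 against 103) and Ephb4 (81.6 against 71.9), while Aplnr was lower (232 against 285).

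**Figure D2:**
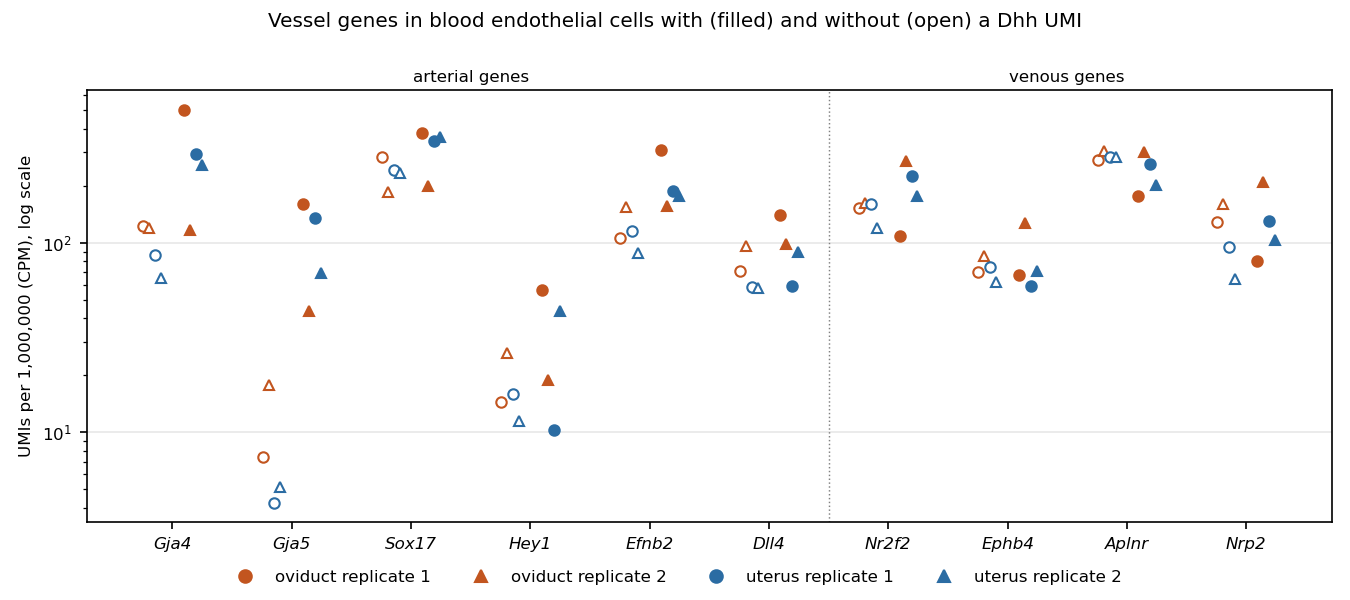
Levels of 6 arterial and 4 venous genes (CPM, log axis) in blood endothelial cells with a Dhh UMI (filled) and without (open), 1 point per library. Gja5 shows the widest gap among the arterial genes, from 43.5 to 159 CPM in filled points and from 4.25 to 17.7 CPM in open ones.

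Ptch1, the receptor that is also a target of the pathway, was higher in epithelium, blood endothelium and mesothelium than in mesenchyme. In epithelium it had 28.0, 36.5, 28.3 and 23.5 CPM, a mean of 32.3 ± 5.98 (SD, n = 2) in oviduct and 25.9 ± 3.44 in uterus. Blood endothelium had 20.1, 28.6, 25.8 and 19.5 CPM, and mesothelium 18.6, 20.4, 20.2 and 18.4 CPM. Epithelium lay above mesothelium in both organs, while endothelium overlapped epithelium in both organs and mesothelium too. Mesenchyme lay lower, at 11.4, 11.7, 7.34 and 7.32 CPM. Smooth muscle had 11.1, 9.12, 10.5 and 7.78 CPM and pericytes 9.44, 7.04, 9.19 and 11.7 CPM. In uterus both of them lay above mesenchyme, and in oviduct both lay below it.

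Against mesenchyme, epithelial Ptch1 was higher by 1.47 ± 0.13 on the log2 scale in oviduct (2.78-fold, edgeR adjusted p = 2.16e-12) and by 1.51 ± 0.21 in uterus (2.85-fold, adjusted p = 1.8e-07). Endothelial Ptch1 was higher by 0.94 ± 0.15 in oviduct (adjusted p = 1.75e-05) and by 1.41 ± 0.16 in uterus (adjusted p = 1.17e-07). Mesothelial Ptch1 was higher by 0.65 ± 0.10 (adjusted p = 4.12e-05) and 1.15 ± 0.21 (adjusted p = 0.000353). These calls kept their direction and their side of the threshold in all alternatives run. Among single cells at their full depth, 193 of 512 epithelial cells had a Ptch1 UMI and 79 of them at least 3, up to 15, whereas 1209 of 12555 mesenchymal cells had one and 31 at least 3. With each cell thinned to 5000 UMIs, a Ptch1 UMI was found in 10.1%, 17.2%, 10.3% and 4.00% of epithelial cells, and in 10.7%, 11.5%, 14.0% and 9.93% of endothelial cells. In mesenchyme the thinned share was 5.46%, 5.28%, 3.49% and 4.07%, so that epithelium was above it in 3 of the 4 libraries and not in uterus 2, where 25 epithelial cells were deep enough. Before thinning 6.67% of the 165 myeloid cells had a Ptch1 UMI at a median depth of 5750 UMIs, against 9.63% of mesenchymal cells at 11894, and the thinned myeloid shares ran from 0 to 13.0% over few cells. The mesenchymal shares and all but 1 each of the epithelial and endothelial thinned shares lay within that range, so the thinned shares are not read as expression by themselves. Measured from haemoglobin RNA, free RNA could supply at most 5.75% of the mesenchymal and 0.113% of the epithelial Ptch1 UMIs. Cells with 100 or more erythroid marker UMIs per 10000, haemoglobin among the markers, had been gated out first. These bounds, and the other free RNA bounds given, may therefore be too low.

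Dhh and Ptch1 were the members higher in blood endothelium than in mesenchyme in both organs, and for that reason the 250 bases before the start of each gene are shown, with GC boxes (GGGCGG, or CCGCCC on the other strand, a site class bound by Sp factors) in capitals. The sequences are from RefSeq on GRCm38.p6. The Dhh window is chr15:98898541-98898790 and the Ptch1 window chr13:63565736-63565985, both on the minus strand and printed 5′ to 3′ in the direction of the gene. The Ptch1 window lies in an intron of longer Ptch1 transcripts in GENCODE.
Dhh: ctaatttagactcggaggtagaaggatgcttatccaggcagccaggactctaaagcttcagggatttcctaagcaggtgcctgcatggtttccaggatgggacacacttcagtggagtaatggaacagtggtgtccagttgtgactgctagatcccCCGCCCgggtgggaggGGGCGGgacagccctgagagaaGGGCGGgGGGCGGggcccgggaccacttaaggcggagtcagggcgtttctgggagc
Ptch1: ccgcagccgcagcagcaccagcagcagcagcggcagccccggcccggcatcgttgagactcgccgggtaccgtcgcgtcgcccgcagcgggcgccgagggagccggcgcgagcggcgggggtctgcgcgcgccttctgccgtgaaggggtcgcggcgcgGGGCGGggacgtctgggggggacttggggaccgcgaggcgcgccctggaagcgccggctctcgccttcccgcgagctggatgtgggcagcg
The Dhh window held 4 GC boxes and the Ptch1 window 1. A GC box was found in 6 of the 7 member windows in the RefSeq table (those of Ihh, Dhh, Ptch1, Gli2, Gli3 and Hhip, not that of Smo), and in 32.7% of 32851 windows of the same length over all genes. The Gli consensus GACCACCCA, searched on both strands, was in none of the 7 and in 0.225% of all windows. A match or its absence describes these letters only.

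Smo, the transducer that every responding cell needs, was found in all 6 classes. It was highest in mesothelium, at 134, 137, 161 and 141 CPM, above every library of any other class. Mesenchyme had 80.0, 85.2, 87.0 and 70.0 CPM and smooth muscle 76.7, 78.5, 93.1 and 78.7 CPM. Epithelium had 63.0, 58.3, 78.1 and 75.8 CPM, and blood endothelium, at 41.6, 40.9, 56.4 and 41.3 CPM, was the lowest of the classes fitted. Mesothelial Smo exceeded the mesenchymal level by 0.61 ± 0.07 on the log2 scale in oviduct (adjusted p = 3.63e-07) and by 0.70 ± 0.09 in uterus (adjusted p = 4.19e-06). Endothelial Smo was lower than mesenchymal Smo, at log2 differences of -1.09 ± 0.10 in oviduct (adjusted p = 2.56e-09) and -0.89 ± 0.09 in uterus (adjusted p = 3.03e-08). The epithelial difference from mesenchyme was -0.45 ± 0.10 in oviduct (adjusted p = 0.000228), and without oviduct 2 it was -0.37 (adjusted p = 0.0617). In uterus it was -0.30 ± 0.13 (adjusted p = 0.0485), a call lost without oviduct 1 (-0.19), oviduct 2 (-0.31) or uterus 1 (-0.08).

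Gli1, whose transcription depends on the pathway being active and which is the usual readout of it, was found in the stromal classes and mesothelium and was nearly missing from epithelium and endothelium. Mesenchyme had 3.74, 4.35, 2.68 and 2.93 CPM (195, 148, 82 and 105 UMIs). Smooth muscle had 2.40, 2.25, 1.16 and 2.32 CPM, pericytes 3.15, 4.48, 5.51 and 6.08 CPM, and mesothelium 5.12, 5.25, 6.93 and 3.28 CPM. Epithelium held 2, 0, 0 and 0 Gli1 UMIs and blood endothelium 0, 0, 0 and 2. The mesenchymal level was 31.0 times the epithelial one in oviduct (counting interval 8.52 to 257) and at least 3.14-fold higher in uterus. It was at least 10.8-fold higher than the endothelial one in oviduct and 12.9 times it in uterus (3.53 to 108). The fit called all 4 of these differences, with adjusted p = 1.87e-08 and 0.000701 for epithelium and 4.34e-06 and 7.56e-05 for endothelium. Gli1 was too low to be tested within epithelium or endothelium and passed the filter on low counts through mesenchyme, where it is high. These calls therefore repeat the counts and are no separate support. Epithelium and endothelium were thus high in Ptch1 and at or near 0 in Gli1 in the same libraries. Both classes were gated with the limit on mesenchymal marker UMIs, whose part in their low Gli levels was not tested. The 4 Gli1 calls were also made with Leiden clusters in place of the gate. That is no separate support either, and it does not test the part of the limit.

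Smooth muscle Gli1 was below mesenchyme in oviduct (log2 difference -0.72 ± 0.20, adjusted p = 0.012), a call lost without oviduct 2 (-0.58, adjusted p = 0.131). In uterus the difference was -0.66 ± 0.25 (adjusted p = 0.0828). It was -0.32 without uterus 1 (adjusted p = 0.589), -1.17 without uterus 2 (adjusted p = 0.0749) and -0.21 with Leiden clusters (adjusted p = 0.627). It was called with no filter on low counts (-0.67, adjusted p = 0.0329), without oviduct 1 (-0.65, adjusted p = 0.0467) and without oviduct 2 (-0.65, adjusted p = 0.049). Mesothelial Gli1 was not called against mesenchyme in oviduct (0.27 ± 0.18, adjusted p = 0.218) or in uterus (0.62 ± 0.43, adjusted p = 0.273). At full depth 107 of 1104 mesothelial cells of both organs had a Gli1 UMI, at a median of 17040 UMIs, and 471 of 12555 mesenchymal cells, at 11894. Thinned to 5000 UMIs, the shares were 1.11%, 1.496%, 1.32% and 5.08% in mesothelium and 1.88%, 1.89%, 1.70% and 1.65% in mesenchyme, so that mesothelium was the lower in 3 of the 4 libraries, on 1 to 7 mesothelial cells with a UMI in each. The counting of reads by strand is not given in the sources used here. On the opposite strand Gli1 overlaps Arhgap9 and Gm47200, Dhh overlaps Gm49442, and Shh overlaps 9530036O11Rik and Gm26894. Without the strand, reads of these genes cannot be told apart. On the same strand Ptch1 overlaps A930032L01Rik, Smo overlaps Gm13717 and Gli3 overlaps Gm48343. The part of these genes in the levels given was not tested.

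Gli2 and Gli3, the factors that carry the signal as activators or repressors, were mainly stromal and mesothelial. Gli2 in mesenchyme was 13.5, 14.3, 18.9 and 17.2 CPM, in smooth muscle 13.4, 14.8, 16.6 and 10.8 CPM, and in mesothelium 16.9, 17.8, 18.3 and 19.7 CPM. In epithelium it was 2.84, 5.03, 0 and 2.93 CPM, from 20, 43, 0 and 6 UMIs. Blood endothelium held 4, 0, 1 and 4 Gli2 UMIs. Epithelial Gli2 was below mesenchyme, at log2 differences of -1.80 ± 0.21 in oviduct (adjusted p = 2.36e-09) and -3.61 ± 0.43 in uterus (adjusted p = 4.9e-09). The uterine value was -2.74 without uterus 1, and without uterus 2 it rests on 0 UMIs and has no usable size. As a ratio of summed levels, uterine mesenchyme held 10.04 times the epithelial Gli2 (counting interval 4.60 to 27.4).

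Gli3 remained measurable in epithelium, at 9.96, 14.0, 13.0 and 19.1 CPM, and in blood endothelium, at 12.1, 14.1, 14.3 and 14.8 CPM. Mesenchyme had 36.6, 40.5, 47.3 and 40.4 CPM, above both classes in every library. The epithelial difference was -1.68 ± 0.14 in oviduct (adjusted p = 2.16e-13) and -1.67 ± 0.19 in uterus (adjusted p = 3.38e-09), and the endothelial one -1.66 ± 0.13 and -1.77 ± 0.12. Mesothelial Gli3 was 34.6, 36.5, 37.2 and 38.7 CPM, with log2 differences from mesenchyme of -0.22 ± 0.08 in oviduct (adjusted p = 0.0191) and -0.46 ± 0.13 in uterus (adjusted p = 0.0104). The oviduct call was lost without oviduct 1 (-0.25, adjusted p = 0.181) or oviduct 2 (-0.19, adjusted p = 0.327), and the uterine one without uterus 1 (-0.35, adjusted p = 0.158).

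**Figure D3:**
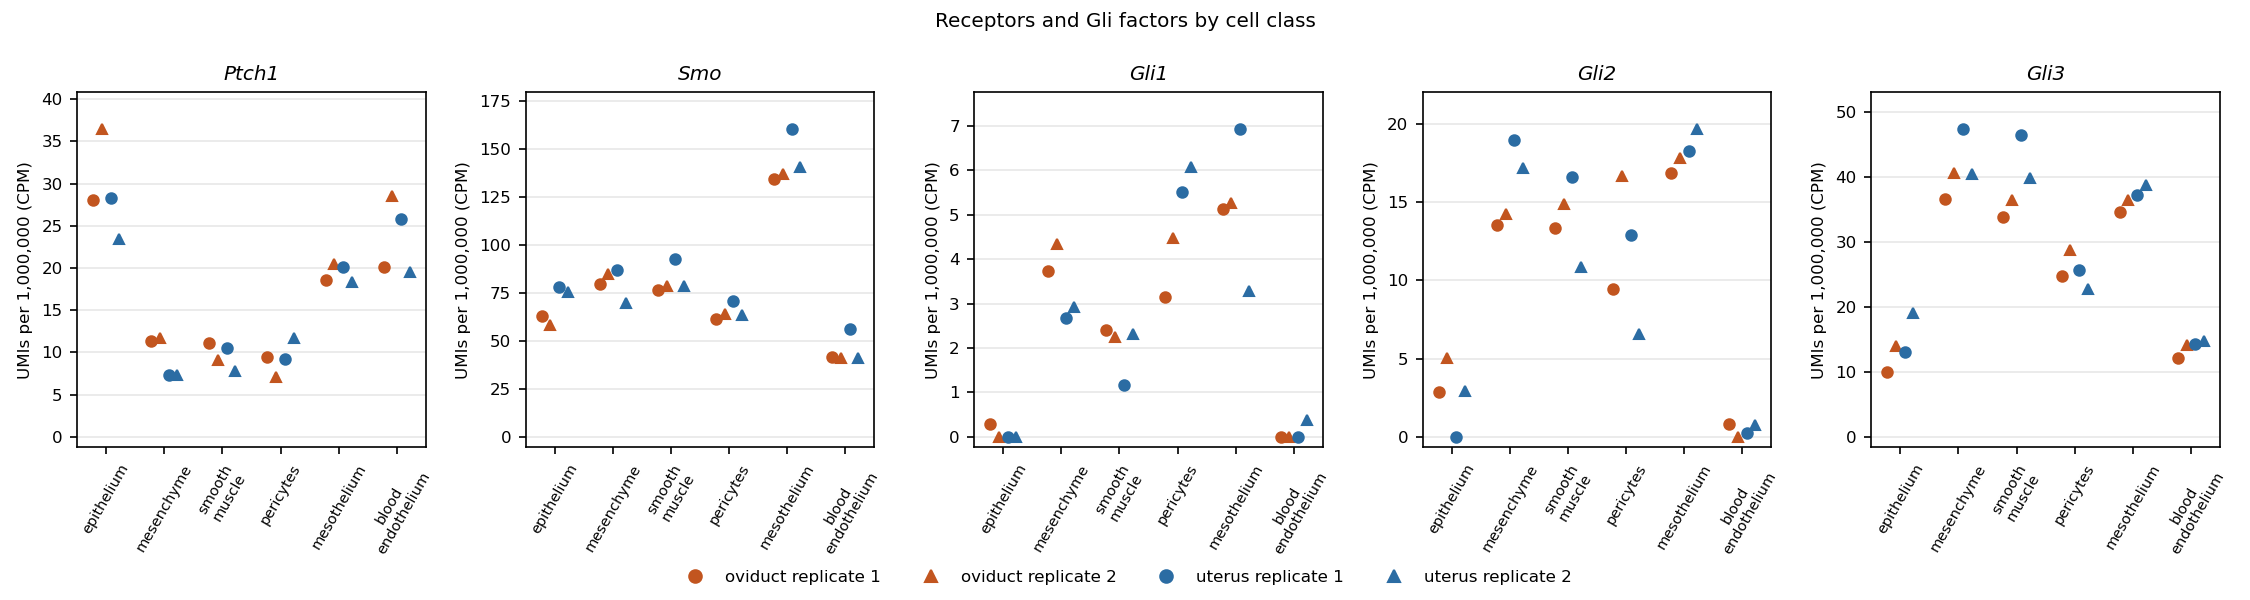
Levels of Ptch1, Smo, Gli1, Gli2 and Gli3 in 6 cell classes, in UMIs per 1000000 (CPM, linear axis that differs between panels), with 1 point per library. Ptch1 in epithelium lies between 23.5 and 36.5 CPM, overlapping blood endothelium, and Gli1 in epithelium lies between 0 and 0.284 CPM. Smo is highest in mesothelium.

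Counted over the members, 6 of 9 passed the filter on low counts in each comparison of a class with mesenchyme. For epithelium 5 of 6 were called in oviduct and 5 of 6 in uterus, against 66.3% and 48.4% of all genes tested, with 1 higher (Ptch1) and 4 lower (Smo, Gli1, Gli2 and Gli3). Of all genes 32.0% were higher and 34.3% lower in oviduct epithelium, and 20.2% higher and 28.2% lower in uterine epithelium. For blood endothelium 6 of 6 were called in each organ, against 63.1% and 60.9% of all genes, with Dhh and Ptch1 higher and the other 4 lower. The shares of all genes higher and lower in endothelium were 28.4% and 34.6% in oviduct and 26.7% and 34.2% in uterus. Gli1 in epithelium and endothelium, and Gli2 in endothelium, passed the filter through mesenchyme. Dhh passed it through endothelium, and through mesothelium in the comparison of that class. The calls of these members in these counts are no separate support. For mesothelium 4 of 6 were called in oviduct (58.2% of all genes) and 3 of 6 in uterus (38.8%). For smooth muscle 1 of 6 was called in oviduct (33.3%) and 2 of 6 in uterus (21.1%): Gli2 was -0.39 ± 0.11 (adjusted p = 0.0152) and Smo 0.15 ± 0.05 (adjusted p = 0.0292) in uterus, and neither was called without uterus 2 (-0.16 and 0.13), nor Smo without uterus 1 (0.19). The median log2 difference of the tested members was -1.07 in oviduct epithelium and -2.64 in uterine epithelium, where the median of all genes was -0.05 and -0.18. These medians include fitted values of no usable size. Without the members at 3 or fewer epithelial UMIs (Gli1 in both organs and Dhh in uterus), the medians were -0.45 over 5 members and -0.98 over 4.

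**Figure D4:**
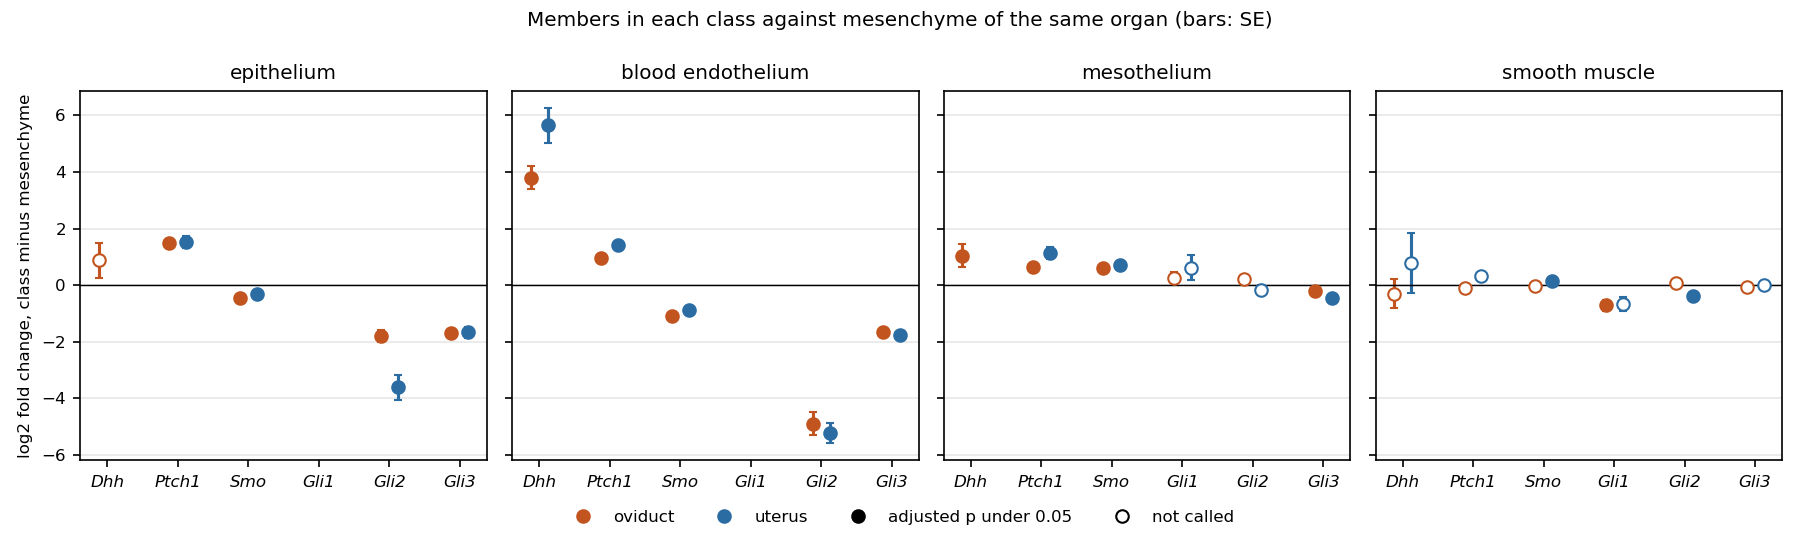
Fitted log2 difference of each class from mesenchyme of the same organ (points) with its SE (bars). Filled points were called at an adjusted p under 0.05, and values resting on 3 or fewer UMIs in a class are left out. Ptch1 is at 1.47 and 1.51 in epithelium, and Dhh is at 3.80 and 5.64 in blood endothelium.

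Between the organs, 7 of 9 members were tested in mesenchyme and 3 called. The share of all genes called there was 40.4%, so the count of members is close to the background. Of these 2 were higher in oviduct and 1 lower, where 21.6% and 18.8% of all genes were. Mesenchymal Ptch1 averaged 11.5 ± 0.267 CPM in oviduct against 7.33 ± 0.018 CPM in uterus (SD, n = 2 each), a log2 difference of 0.59 ± 0.10 (adjusted p = 0.000963). Gli2 was lower in oviduct mesenchyme (log2 difference -0.44 ± 0.09, adjusted p = 0.00225), both oviduct values lying under both uterine ones. Dhh was higher in it by 2.65 ± 0.74 (6.29-fold, adjusted p = 0.0149), on 50 against 6 UMIs. In this fit Dhh passed the filter on low counts through oviduct mesenchyme, where it is higher. Its call therefore repeats the counts and is no separate support. The Dhh call was lost without oviduct 2 (1.77) and without uterus 1 (2.01). Over the 11 alternatives the difference ran from 1.77 to 4.06. Free RNA could supply at most 17.7%, 2.74%, 5.40% and 37.6% of these mesenchymal Dhh UMIs by library.

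Gli1 in mesenchyme was higher in both oviduct libraries than in either uterine one, with a log2 difference of 0.45 ± 0.18 that missed the threshold (adjusted p = 0.0626). With the replicate number as a block it was called, at 0.46 (adjusted p = 0.039), as was Gli3 at -0.25 (adjusted p = 0.0491, against 0.0516 without the block), which took the members called from 3 to 5. The block takes equal replicate numbers as the same pool, which no label states outright. Over the 11 alternatives Gli1 was called in 4 and ran from 0.36 to 0.56. Gli3 was called in 5 and ran from -0.33 to -0.17. Smo differed between the organs in mesenchyme by 0.01 ± 0.10 (adjusted p = 0.931). Free RNA moved in the same direction as the mesenchymal Ptch1, at 11.1, 7.85, 3.91 and 4.24 CPM of Ptch1 in nearly empty droplets, and it made up at most 0.222% to 5.75% of the mesenchymal Ptch1 UMIs. Its part in the organ difference was not tested further.

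The 2 mesenchymal clusters with the most cells came almost wholly from 1 organ each, while clusters 8, 9 and 10 held 55 or more cells in each of the 4 libraries. The 1838 cells of cluster 1, led by Aldh1a1 and Enpp2, came as 1100, 730, 3 and 5 cells by library, and the 1889 cells of cluster 0, led by Tex15 and Hoxd11, as 13, 14, 992 and 870. Ptch1 was 11.4 and 12.2 CPM in cluster 1 of the oviduct libraries and 6.26 and 5.80 CPM in cluster 0 of the uterine ones. Gli1 was 4.33 and 3.82 CPM in cluster 1 and 1.71 and 1.41 CPM in cluster 0. The uterus also held cluster 18 (537 cells, led by Pcdh10 and A2m), where Gli1 reached 8.58 and 7.84 CPM and Ptch1 12.2 and 11.3 CPM. In cluster 8 (846 cells, led by Nefm and Nefl), which all 4 libraries shared, Gli1 was 4.30, 6.55, 10.6 and 8.54 CPM and Ptch1 10.1, 11.4, 7.97 and 19.5 CPM. The cluster had 437, 296, 58 and 55 cells, and its Gli1 levels rest on 25, 23, 8 and 7 UMIs. Both uterine Gli1 values lay above both oviduct ones there, on few UMIs, whereas in the whole class both lay below, and Ptch1 overlapped. In cluster 9 (838 cells, led by the mitotic genes Cenpf and Aspm) Ptch1 was 13.2, 9.60, 13.2 and 7.18 CPM and the organs overlapped. Clusters were made on 2000 variable genes chosen after the 9 members were taken out, but genes that vary with the members could be among them, and the values are a description.

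**Figure D5:**
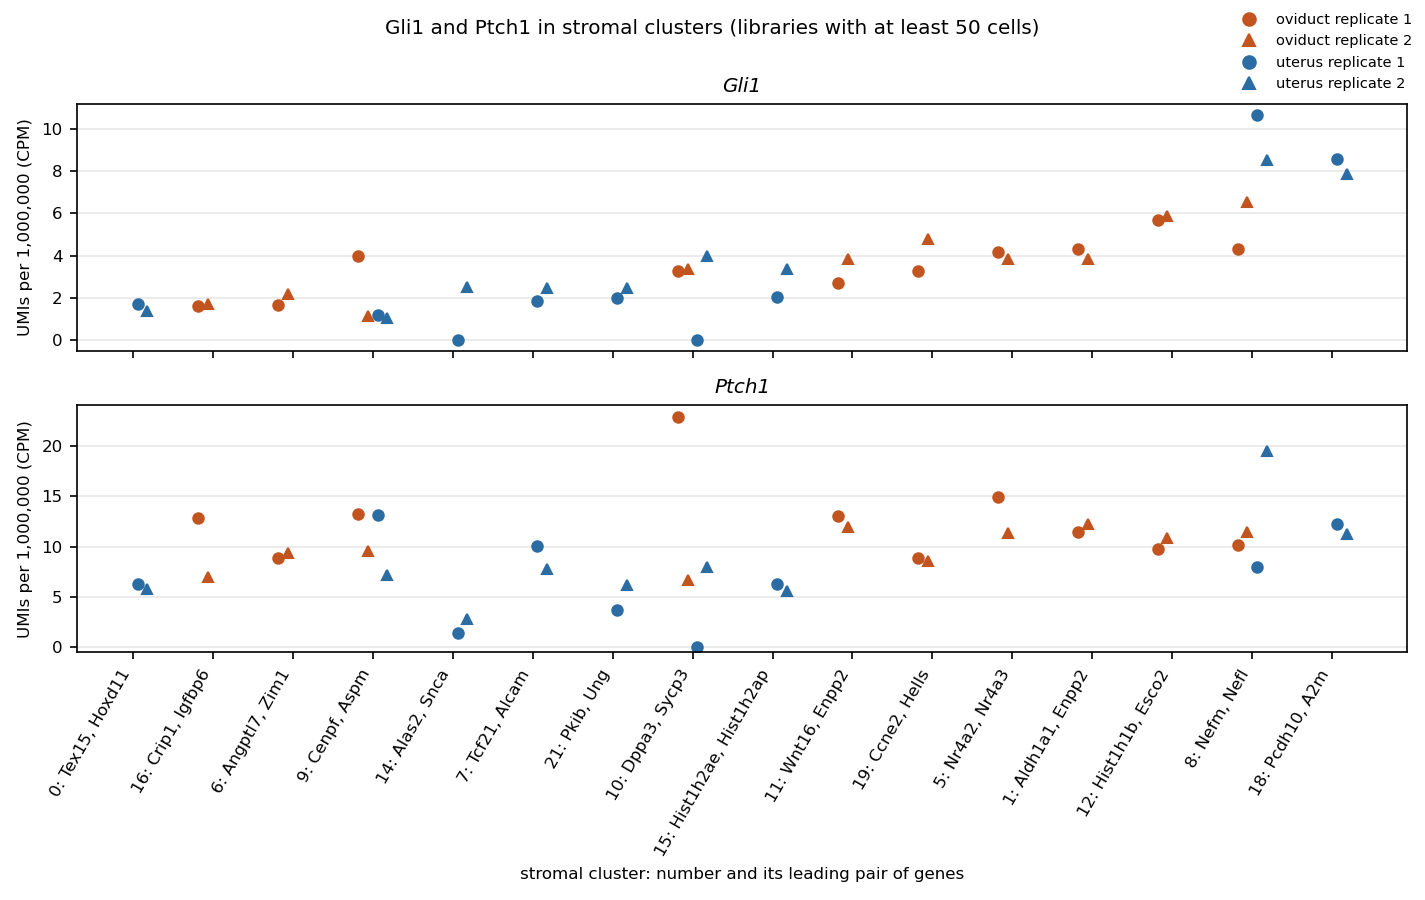
Gli1 (upper panel) and Ptch1 (lower panel) in clusters of stromal cells, in UMIs per 1000000 (CPM), 1 point per library with at least 50 cells in the cluster, with clusters sorted by the pooled Gli1 level. In cluster 18 the uterine Gli1 is at 8.58 and 7.84 CPM, and in cluster 0 at 1.71 and 1.41 CPM.

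Few members were called between the organs in the other classes. Smooth muscle had 1 of 5 tested members called (31.8% of all genes): Gli3 was 33.7, 36.3, 46.5 and 39.9 CPM, a log2 difference of -0.32 ± 0.10 (adjusted p = 0.0274). That call was lost without oviduct 1 (-0.28, adjusted p = 0.157), oviduct 2 (-0.36, adjusted p = 0.0654) or uterus 1 (-0.23, adjusted p = 0.163). The cells behind it came from different clusters, with 570, 438, 1 and 3 smooth muscle cells by library in cluster 4 and 14, 29, 428 and 415 in cluster 2. Epithelium differed likewise: cluster 23 held 82, 147, 0 and 0 epithelial cells by library at a median of 30555 UMIs, and nearly all uterine epithelial cells were in clusters 20 (28, 79, 16 and 31 cells, median 2534 UMIs) and 24 (40, 22, 36 and 28 cells, median 4806.5 UMIs). The organ and cluster 23 cannot be told apart, while clusters 20 and 24 held epithelial cells of all 4 libraries. The organs were not compared within those clusters. In epithelium edgeR called 0 of 4 (23.4% of all genes), with 0 at an unadjusted p under 0.05 and 0 by DESeq2. Epithelial Ptch1 differed by 0.47 ± 0.22 (adjusted p = 0.146). Pericytes had 0 of 4 called (4.42% of all genes) and mesothelium 0 of 5 (8.62%), with 0 at an unadjusted p under 0.05 in each and 0 by DESeq2. In blood endothelium edgeR called 0 of 4 (3.09%), DESeq2 0, and Dhh alone had an unadjusted p under 0.05. The endothelial Dhh difference was 0.71 ± 0.29 (adjusted p = 0.27), with both oviduct values above both uterine ones.

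The organ difference itself was compared between epithelium and mesenchyme, where 1 of 6 tested members was called, with a positive difference (13.0% of all genes). For Gli2 the oviduct minus uterus difference was larger in epithelium by 1.81 ± 0.60 (adjusted p = 0.029). Within epithelium alone the Gli2 difference was 1.29 ± 0.69 (adjusted p = 0.195). The call was lost by DESeq2 (1.85, adjusted p = 0.276), with Leiden clusters (1.32, adjusted p = 0.0835), without oviduct 2 (1.35) and without uterus 1 (0.95). Uterus 1 is the library with 0 epithelial Gli2 UMIs. Without uterus 2 the value rests on those 0 UMIs and has no usable size.

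Hhip, the cell-surface decoy that binds ligand and is a pathway target elsewhere, was near the detection floor. It had 20, 16, 12 and 15 UMIs per library over all kept cells, 63 in all, and mesenchyme held 5, 10, 10 and 6 of them. It was tested between the organs in mesenchyme alone, where it was not called (adjusted p = 0.561). Its level did not allow any class to be named as its source.

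Of 56 further genes of the pathway, 50 were tested in mesenchyme, and 25 were called between the organs there, 17 higher and 8 lower in oviduct, where 40.4% of all genes were called, 21.6% higher and 18.8% lower. Of the 7 co-receptors and other receptor genes, 6 were called, 5 of them higher in oviduct, with a list median of 0.63 against a median of 0.00 for all genes. Boc, a co-receptor that helps ligand reach Ptch1, was higher in oviduct by 2.45 ± 0.09 (adjusted p = 1.04e-08; mean levels 58.2 and 10.1 CPM). Cdon, its relative, was higher by 0.92 ± 0.09, and Lrp2, an endocytic receptor that binds Shh, by 2.95 ± 0.46 on 74 against 7 UMIs (mean levels 0.889 and 0.105 CPM). For ligand processing and release 3 of 5 were called: Scube1, which helps release ligand, was higher by 0.83 ± 0.09, Disp1, the exporter of lipid-bearing ligand, by 0.42 ± 0.12, and Scube2 was lower (log2 difference -0.45 ± 0.14). Of 21 relay and cilium genes 2 were called, among them Arl13b at 0.37 ± 0.08. Of 17 tested genes known as responders in other tissues 14 were called, 8 higher and 6 lower, among them the transcription factor Osr1 at 2.10 ± 0.10, the cyclin Ccnd1 at -1.81 ± 0.08 and the transcription factor Tcf21 at -1.65 ± 0.09. The responders did not move one way, and their median was -0.14.

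In epithelium 45 of the 56 were tested and 12 called between the organs, 10 higher and 2 lower in oviduct, beside 23.4% of all genes called, 14.4% higher and 9.02% lower. The share called is close to that background, and oviduct-only cluster 23 holds much of the oviduct epithelium compared here. Gas1, a co-receptor, had 90.2 CPM in oviduct epithelium and 22.3 CPM in uterine epithelium, a log2 difference of 2.14 ± 0.21 (adjusted p = 1.1e-06). Boc was higher by 1.86 ± 0.31 (adjusted p = 0.000309). Scube3 was the called gene of its list, lower in oviduct at -1.92 ± 0.51 on the log2 scale, on 20 and 18 UMIs. Among responders 6 of 13 were called, 5 higher in oviduct, including the steroid enzyme gene Hsd11b1 at 2.19 ± 0.42 (177 and 9 UMIs) and the survival gene Bcl2 at 1.57 ± 0.34 (214 and 17 UMIs).

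Against mesenchyme, 41 of 50 of these genes were called in oviduct, 31 of them lower in epithelium, where 66.3% of all genes were called and 34.3% were lower. In uterus 32 of 50 were called, 29 of them lower, beside 48.4% and 28.2% of all genes. The membrane proteoglycan Gpc3 was at -4.62 ± 0.14 on the log2 scale in oviduct and -4.67 ± 0.21 in uterus. Gas1 was at -2.70 ± 0.11 and -4.30 ± 0.15, and Scube1 at -4.92 ± 0.19 and -5.17 ± 0.39, on 34 and 4 epithelial UMIs. Lrp2 went the other way, at 2.22 ± 0.40 on 64 epithelial UMIs in oviduct and at 4.16 ± 0.95 on 8 in uterus, against 7 in uterine mesenchyme. Evc, a cilium protein that works with Smo, was at -2.66 ± 0.23 and -1.33 ± 0.32.

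Across the 28 sums of class and library, the genes whose levels were most like those of Ptch1 were Avl9 (Pearson r = 0.93), Zfp646 (0.91) and Limk2 (0.91), out of 8954 genes compared on log2(CPM + 1). For Smo they were Smad6 (0.94), Zfp651 (0.94) and Zdbf2 (0.93), and for Gli3 Tead1 (0.98), Rbm4b (0.96) and Fstl1 (0.95). The sums share libraries and depth, so these values describe the 28 points and carry no test. Dhh has a same-strand neighbour, Rhebl1, that shares 546 of its 4399 exonic bases and none of its last 1000, where 3′ reads are expected. Rhebl1 stood at 5.86, 4.21, 4.59 and 4.54 CPM in blood endothelium.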

How the data were processed

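Single-cell 3′ transcript libraries (Chromium v3.1 kit, per the labels' protocols) were deposited by the authors as filtered and raw matrices of UMI counts, not normalized, made with Cell Ranger 6.0.1 and 4 respectively per the file headers, on mm10 per the submitters' processing notes. Annotation and intron use: not given in the sources used here. Barcodes below 500 genes or above 15% mitochondrial UMIs were dropped, and the highest Scrublet scores (0.8% per 1000 cells) were removed as doublets, since the caller's own threshold marked 0 to 2 cells a library. Classes came from marker gates. UMIs were summed per library and class and fitted over all genes with edgeR 4.0.16 (TMM, filterByExpr, quasi-likelihood test, Benjamini-Hochberg threshold 0.05) in R 4.3.3, with library as a term for comparisons between classes. DESeq2 1.42.0 and Leiden clusters (2000 variable genes, members left out, resolution 1) were alternatives. Simulated data were fitted for the organ differences in epithelium, mesenchyme and blood endothelium, and for epithelium against mesenchyme in oviduct. The other comparisons were not simulated, and the outcome is not reported here. Intervals and floors (3 counts, 95% exact) cover counting error only. Both organs came from the same pools of neonates per the design text, and equal replicate numbers were taken as the same pool, which no label states outright. The correlation of replicate differences between the organs was 0.20 in mesenchyme, 0.19 in smooth muscle, 0.15 in mesothelium, 0.04 in pericytes, -0.23 in endothelium and -0.31 in epithelium. The members and gene lists were chosen with earlier results of these data known. The comparisons of blood endothelium and of mesothelium with mesenchyme were added after the data were seen. All 9 members are given. Pathway genes are given as counts, with values for at most the 3 largest called changes of each list in mesenchyme and epithelium. Some genes of these lists are counted but not reported by name here.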

Additional observations from a re-analysis of the deposited data

Results flagged for a closer look

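The organ difference of Gli2 was called different between epithelium and mesenchyme by the test of the difference itself, at 1.81 on the log2 scale (edgeR adjusted p = 0.029), under 6 of 10 alternatives. The call was lost by DESeq2 (adjusted p = 0.276), with Leiden clusters (adjusted p = 0.0835), without oviduct 2 (adjusted p = 0.212) and without uterus 1 (adjusted p = 0.339). In mesenchyme Gli2 was lower in oviduct than in uterus, and in epithelium the uterine level rested on 0 and 6 UMIs against 20 and 43 in the oviduct libraries. The alternative without uterus 2, which kept the call, rests on 0 uterine epithelial UMIs and has no usable size.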

How the results depend on the processing

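Over 849 alternative values for 78 member values, 755 kept their direction and side of the threshold. None of the 35 called values among them reversed, and 24 were called under every alternative. Among the 24 were Gli1 in oviduct epithelium and uterine blood endothelium, and Gli2 and Dhh in blood endothelium of both organs. Those values passed the filter on low counts through the class where the gene is high. Their place in this tally is no separate support. A further 2 calls, Gli1 in uterine epithelium and in oviduct blood endothelium, rest on 0 UMIs in that class and have no usable size. Both were called in the same direction under all 11 alternatives. With 0 UMIs in the class the direction could not change on the same cells, so the alternatives are no separate support. Counts of members called that moved by over 1.5 times are given next; of the smaller moves, uterine epithelial Smo against mesenchyme lost its call by DESeq2, with no library term and without oviduct 1, oviduct 2 or uterus 1, and uterine mesothelial Gli3 by DESeq2 and without uterus 1. Organ difference in mesenchyme (3): 5 with no filter on low counts and 5 with the replicate block. Without 3 doubted stromal clusters, a setting added after the data were seen, it was 5, and Gli1 was 0.49 (edgeR adjusted p = 0.0396). Those were clusters 10 and 16, low in UMIs, and cluster 14, where 104 of 642 cells were gated as erythroid. Organ difference in smooth muscle (1): 0 by DESeq2, 0 to 1 on leaving out 1 library. Organ difference in epithelium (0): 0 to 1 on leaving out 1 library, with Gli2 called without uterus 2, when 1 uterine sum with 0 UMIs remained. Smooth muscle against mesenchyme in oviduct (1): 0 by DESeq2, 2 with Leiden clusters, 0 with no library term, 0 to 1 on leaving out 1 library. Smooth muscle against mesenchyme in uterus (2): 0 by DESeq2, 0 with no library term, 0 to 4 on leaving out 1 library. Organ effect in epithelium against mesenchyme (1): 0 by DESeq2, 0 with Leiden clusters, 0 to 1 on leaving out 1 library. Mesothelium against mesenchyme in oviduct (4): 2 by DESeq2, 2 with no library term, 2 to 4 on leaving out 1 library. The causes were not tested. A library left alone in its organ was assumed to vary like the other group.

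All genes called moved by over 1.5 times from 2847 to 1617 by DESeq2 and 1761 without oviduct 2 (organ, epithelium), 4339 to 2828 by DESeq2 (organ, smooth muscle), 441 to 146 by DESeq2 (pericytes), 1112 to 715 by DESeq2 and 1715 with the replicate block (mesothelium), 342 to 158 by DESeq2 and 540 with no filter (endothelium), 3154 to 1528 by DESeq2 (organ effect in epithelium against mesenchyme), 5084 to 2014 by DESeq2 and 2591 with no library term (smooth muscle, oviduct), 3216 to 1423 by DESeq2, 1759 with no library term, 1698 without uterus 1 and 1761 without uterus 2 (smooth muscle, uterus), and 9348 to 6124 by DESeq2 and 5979 without oviduct 1 (mesothelium against mesenchyme, oviduct). The replicate block changed no other member call between organs. With the pairing crossed, added after the data were seen, 3783 genes were called in epithelium and 490 in endothelium, and 0 members in either. Depth limits Shh, Ihh and Hhip, and Gli1 in epithelium and blood endothelium, Gli2 in blood endothelium and Gli2 in uterine epithelium, which had 0 to 6 UMIs a library.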
